A study of Macaca mulatta with 8 samples.

Results

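The genes described are 2 interferon ligands, IFNG and IFNB1, and the 4 chains of the receptors for type I and type II interferon, IFNGR1, IFNGR2, IFNAR1 and IFNAR2. They were taken by symbol from the gene list of the files, and 6 of 6 were present among the 26533 features. They were measured in 8 single-cell RNA sequencing libraries of retina from 2 wild-type male rhesus macaques, with 91796 cells, of which 63654 fell into named classes. NHP1, aged 5 years, had received AAV2-CAG-hRPE65 under the retina of both eyes, and its 2 libraries, 1 of each eye, come from areas labelled as uninjected. NHP2, aged 6 years, had received AAV8-GRK1-hRPGR(co) and AAV8-GRK1-mScarlet in separate blebs of each eye, and gave an uninjected area, an hRPGR bleb and an mScarlet bleb from both eyes. The CAG promoter is active in most cell types and GRK1 is a photoreceptor promoter. All eyes had subtenon triamcinolone, and left eyes had intravitreal adalimumab, an antibody against TNF, as well. Retinas were collected at 12 weeks. In what follows libraries are given in the order right eye, left eye.

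Interferons are secreted signals of antiviral and cellular immunity. IFN-γ, the product of IFNG, is the type II interferon and is made mainly by activated T cells and natural killer cells. IFN-β, the product of IFNB1, is a type I interferon that many cell types can make after sensing viral nucleic acid. IFN-γ signals through a receptor that needs both IFNGR1, which binds the ligand, and IFNGR2, which carries JAK2. Type I interferons signal through IFNAR1 and IFNAR2, with the kinases TYK2 and JAK1, and act on their targets through STAT2 and IRF9. A cell thus needs both chains of a receptor to respond.

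Of the 6 genes, 3 lie close together. In the Mmul_10 assembly, IFNGR2 (chr3:13108044-13145246), IFNAR1 (chr3:13192424-13224437) and IFNAR2 (chr3:13289046-13325302) lie on the minus strand within 217259 bases, with IL10RB between IFNAR1 and IFNAR2. IFNGR1 is on the minus strand of chromosome 4 (chr4:40817417-40837449), IFNG on the minus strand of chromosome 11 (chr11:67686366-67690606) and IFNB1, a gene of 1 exon, on the plus strand of chromosome 15 (chr15:62578511-62579074). IFNAR1 overlaps the annotated gene LOC106997261, so its UMIs could include some of that gene.

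The 250 bases before the annotated start of IFNAR1 and IFNAR2 are shown because IFNAR2 is the member whose level differed between areas and because both hold the letters of a GAS element, a promoter element of genes that respond to IFN-γ. The sequences are from RefSeq, assembly Mmul_10, written along the minus strand from chr3:13224438-13224687 and chr3:13325303-13325552, with the GAS letters in capitals.
IFNAR1: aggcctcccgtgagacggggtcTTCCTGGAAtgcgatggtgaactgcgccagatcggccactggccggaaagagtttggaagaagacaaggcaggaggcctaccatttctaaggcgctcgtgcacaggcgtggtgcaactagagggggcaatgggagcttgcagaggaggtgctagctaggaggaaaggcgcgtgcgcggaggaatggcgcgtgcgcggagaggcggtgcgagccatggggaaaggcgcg
IFNAR2: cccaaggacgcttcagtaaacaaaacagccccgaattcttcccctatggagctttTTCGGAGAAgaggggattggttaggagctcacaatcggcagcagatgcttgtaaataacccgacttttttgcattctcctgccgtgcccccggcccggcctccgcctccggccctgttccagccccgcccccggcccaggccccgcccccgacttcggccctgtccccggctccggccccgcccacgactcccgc
The search used TTCNNNGAA for GAS and GAAA followed by any 2 bases and GAAA again for ISRE, a promoter element of genes that respond to type I interferon, on both strands. GAS letters were found in 5.98% and ISRE letters in 3.03% of the 20782 windows of 250 bases before protein-coding genes. In IFNAR1 the match TTCCTGGAA lay 228 to 220 bases before the start and in IFNAR2 the match TTCGGAGAA lay 195 to 187 bases before it. The other 4 members had no GAS match, and none of the 6 had an ISRE match in this window. A match is a description of the letters only.

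Each library held 90634306 to 146519011 UMIs (unique molecule counts) over all barcodes, and its cells had medians of 4606 to 6036 UMIs. Levels are CPM, the UMIs of a gene in a class of a library scaled to a common total of UMIs, and classes are named from marker genes with the suffix "-like". In 2 libraries labelled uninjected a transgene was present. The right uninjected area of NHP2 held 18290 UMIs of codon-optimised RPGR against 1 in the left. The left library of NHP1 held 56451 UMIs of human RPE65 against 16 in the right. Blebs also held UMIs of the other vector's transgene. The mScarlet blebs held 2127 and 32 UMIs of codon-optimised RPGR, beside 415470 and 119813 in the hRPGR blebs. The hRPGR blebs held 6 and 62 UMIs of mScarlet, beside 16134 and 13357 in the mScarlet blebs. Clusters without a name held 8.72% to 47.0% of the cells of a library, and any 2 libraries shared 135 to 255 cell barcodes. All areas of NHP2 come from 1 animal, so p-values measure the spread between its libraries.

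IFNG was found almost only in T/NK-like cells. Of 221 IFNG UMIs in clustered cells, 217 (98.2%) were in T/NK-like cells, which made up 1.08% of those cells. The other 4 were 1 in a B-like cell and 1 in a horizontal-like cell, both from right eyes, and 2 in myeloid-like cells of the left mScarlet bleb. No IFNG UMI was found in 43570 rod-like cells, a count of 0 that allows a share of up to 0.00689% of cells with a UMI. Low-count barcodes, which carry free RNA, held 3 UMIs in all libraries together.

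The T/NK-like cells of NHP1 held 0 IFNG UMIs in 2 cells (right) and 1 UMI in 43 cells (left). In the uninjected areas of NHP2 there was 1 UMI in 24 cells and 3 UMIs in 34 cells. The hRPGR blebs gave 14 UMIs in 99 cells and 6 UMIs in 33 cells, and in the mScarlet blebs 87 UMIs in 238 cells and 105 UMIs in 425 cells. Both the number of T/NK-like cells and the IFNG UMIs were highest in the mScarlet blebs. Per T/NK-like UMI, the IFNG level was 6.03 CPM in the left library of NHP1, 11.5 and 21.8 CPM in the uninjected areas of NHP2, 33.9 and 32.7 CPM in hRPGR blebs and 64.0 and 45.5 CPM in the mScarlet blebs. The 4 blebs lay above both uninjected areas, as 14% of all genes tested in that class did. The edgeR quasi-likelihood test gave a log2 difference of 1.58 (SE 0.61), a 2.99-fold difference between mScarlet blebs and uninjected areas, with an adjusted p of 0.403, so the difference per T/NK-like cell did not pass. It was 1.33 without the right uninjected area and 2.21 without the left, the lowest and highest of the 5 values with 1 library left out.

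Taken over every cell of the library, the IFNG level was 0 and 0.0128 CPM in NHP1, 0.0162 and 0.0427 CPM in the uninjected areas of NHP2, 0.209 and 0.103 CPM in hRPGR blebs and 1.36 and 1.40 CPM in the mScarlet blebs. The level was above both uninjected areas in 4 of 4 blebs, and the share of all genes with this order over all cells was not counted. The mean was 0.769 CPM ± 0.709 (SD, n = 4) in the blebs and 0.0294 CPM ± 0.0187 (n = 2) in the uninjected areas. In an exact permutation test over the 15 arrangements of these libraries the two-sided p was 0.133, with a difference of 0.739 CPM. The smallest p that 4 against 2 libraries allow is 0.0667, so this design cannot reach 0.05. A value over all cells mixes the number of T/NK-like cells with the IFNG per T/NK-like cell. T/NK-like cells were 0.256% and 0.311% of cells in the uninjected areas, 0.872% and 0.355% in hRPGR blebs and 2.70% and 4.15% in the mScarlet blebs. The part of each in the difference was not tested.

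**Figure D1:**
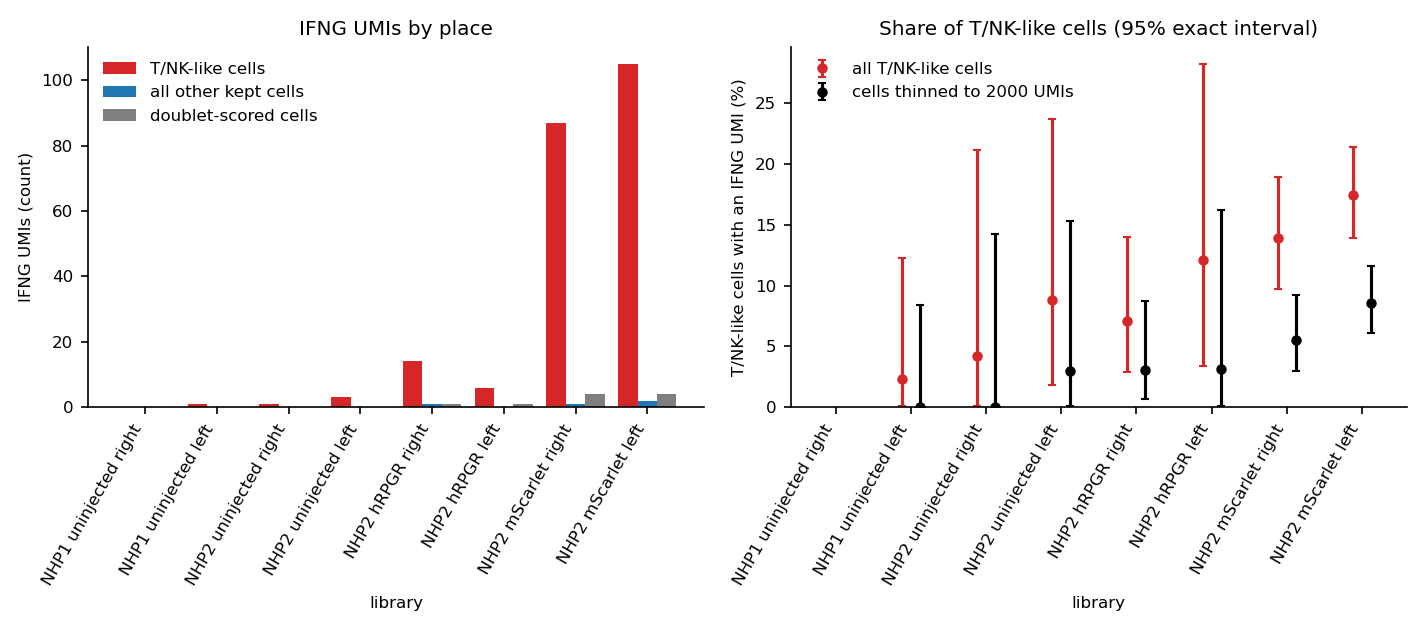
IFNG in each library, by area and eye, as UMIs in T/NK-like cells, in other cells kept and in doublet-scored cells. The share of T/NK-like cells with an IFNG UMI is shown before and after thinning, with 95% intervals. The mScarlet blebs held 87 and 105 of the 217 UMIs in T/NK-like cells.

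The share of T/NK-like cells with an IFNG UMI depends on depth, so each cell was thinned to 2000 UMIs, which left out 9 T/NK-like cells. The thinned share was 0% and 2.94% in the uninjected areas of NHP2, 3.06% and 3.13% in hRPGR blebs and 5.51% and 8.55% in the mScarlet blebs. The means were 5.06% ± 2.59 (SD, n = 4) in blebs and 1.47% ± 2.08 (n = 2) in uninjected areas, with an exact permutation p of 0.133. Without thinning the shares were 4.17% and 8.82%, 7.07% and 12.1%, and 13.9% and 17.4%, and the left uninjected area then lay above the right hRPGR bleb, with an exact permutation p of 0.267. Cells with 2 or more IFNG UMIs were 0 of 24 and 0 of 34 in the uninjected areas, 3 of 99 (3.03%) and 2 of 33 (6.06%) in hRPGR blebs and 13 of 238 (5.46%) and 19 of 425 (4.47%) in the mScarlet blebs, with the highest share in the left hRPGR bleb and an exact permutation p of 0.0667, the smallest possible. The cell with the most held 14 IFNG UMIs, in the right mScarlet bleb. Few cells carried much of the level: the 3 cells with the most IFNG held 1 of 1 and 3 of 3 UMIs in the uninjected areas, 10 of 14 and 5 of 6 UMIs in hRPGR blebs and 35 of 87 and 17 of 105 UMIs in the mScarlet blebs.

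IFNG was present in T/NK-like cells with either coreceptor. Of 434 cells with a UMI of CD8A or CD8B and none of CD4, 68 (15.7%) had an IFNG UMI, with an exact Clopper-Pearson 95% interval of 12.4% to 19.4%. Of 234 cells with a UMI of CD4 only, 31 (13.2%, interval 9.18% to 18.3%) had one, and of 221 cells with neither, 21 (9.5%, interval 5.98% to 14.2%) did. These intervals overlap and cover counting error only. After thinning the shares were 6.31%, 5.56% and 6.42%. The order differed between the libraries with the most T/NK-like cells: in the right mScarlet bleb it was 4.13% of 121 CD8 cells and 11.9% of 59 CD4 cells, and in the left 10.2% of 205 CD8 cells and 3.51% of 114 CD4 cells. The 31 CD4 cells held 94 IFNG UMIs and the 68 CD8 cells held 89, and 50 of the 94 came from the right mScarlet bleb.

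Within the mScarlet blebs, T/NK-like cells with an IFNG UMI after thinning were compared with those without one after thinning. By the thinned counts these were 13 against 223 cells in the right eye and 36 against 385 in the left. They were compared as sums per library with the eye in the edgeR fit. Before thinning, 33 of 238 cells (right) and 74 of 425 cells (left) held an IFNG UMI. The group without IFNG thus includes cells that lost their IFNG UMIs in thinning. Of 4508 genes tested 2 (0.0444%) passed, both higher in the cells with IFNG. They were CXCL13, a chemokine that attracts B cells and that some activated T cells make, with a log2 difference of 3.04 (SE 0.34, adjusted p 0.0021), and ENSMMUG00000013779, with 2.67 (SE 0.36, adjusted p 0.0081). Of a list of 20 T/NK subset genes 16 could be tested, 14 differences were positive and none passed, with a median of 0.57 beside -0.05 over all genes tested. GZMB, a cytotoxic granule protease, had a log2 difference of 0.71 (adjusted p 0.154) and CCL5 had 0.67 (adjusted p 0.199). The negative differences, which were also the largest in size on this list, were CD4 at -1.93 (SE 0.73) and FOXP3 at -1.93 (SE 1.04). The fit has 1 residual degree of freedom, and without thinning it called 311 genes.

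IFNB1 was nearly undetected. There were 4 UMIs in all barcodes, of which 1 was in 1 myeloid-like cell of the left uninjected area of NHP2, 2 were in 1 myeloid-like cell of the left mScarlet bleb and 1 was in a low-count barcode. No other class held an IFNB1 UMI, and no contrast could test it. Of 19 other interferon ligand genes listed, 11 were among the features, and outside the type III gene IFNL1 the highest total was 20 UMIs, of IFNA14.

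IFNGR1 and IFNGR2, the chains of the IFN-γ receptor, were highest in myeloid-like and B-like cells. IFNGR1 in myeloid-like cells was 172 and 237 CPM in NHP1, 416 and 349 CPM in the uninjected areas of NHP2, 178 and 325 CPM in hRPGR blebs and 211 and 213 CPM in the mScarlet blebs, with a mean of 262 CPM ± 89.5 (SD, n = 8). B-like cells had 138 CPM ± 38.3 (n = 3). All libraries of the myeloid-like class lay above every retinal neuron class. Cells like retinal pigment epithelium had 64.6 CPM ± 24.6 (n = 4). T/NK-like cells had 55.5 CPM ± 29.5 (n = 7), horizontal-like cells 45.7 CPM, Müller-like cells 42.0 CPM, rod-like cells 39.9 CPM ± 4.65 (n = 8), bipolar-like cells 35.3 CPM ± 1.45 (n = 8) and cone-like cells 26.8 CPM. The lowest mean of those with at least 3 libraries was that of plasma-like cells, 11.6 CPM (n = 3). Low-count barcodes held 9.61 to 40.1 CPM of IFNGR1, a range that reaches the levels of the neurons.

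IFNGR2 was high in myeloid-like cells and low in T/NK-like and plasma-like cells. In myeloid-like cells it was 140 and 171 CPM in NHP1, 253 and 231 CPM in the uninjected areas of NHP2, 237 and 278 CPM in hRPGR blebs and 325 and 358 CPM in the mScarlet blebs, with a mean of 249 CPM ± 72.7 (SD, n = 8). In T/NK-like cells it was 0 CPM in 3 of 7 libraries with at least 10 such cells and 4.42, 5.20, 9.69 and 14.5 CPM in the others, from 24 UMIs in all. Plasma-like cells had 9.80 CPM ± 1.76 (SD, n = 3), within the range of T/NK-like cells. Among classes that shared at least 6 libraries the next in order were cone-like cells, and T/NK-like cells lay below them in 7 of 7 libraries (exact sign-flip p 0.0156, adjusted 0.0833 over 32 neighbouring pairs). The counts of 0 allow up to 16.3 to 34.5 CPM. Low-count barcodes held 6.56 to 25.3 CPM, above the T/NK-like level of their library in the 4 libraries with UMIs. The cells that held nearly all IFNG had little mRNA for IFNGR2, the second chain of the IFN-γ receptor.

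Both chains in the same cell were counted in cells thinned to 2000 UMIs. Cells with fewer UMIs were left out, 373 of them myeloid-like, 9 T/NK-like, 4 B-like and 2643 rod-like. In the myeloid-like cluster with medians of 1782 to 2421 UMIs per cell, both chains were lower than in the other cluster in each library. The myeloid-like share is thus that of the cells with more UMIs. IFNGR1 and IFNGR2 were found together in 141 of 1221 myeloid-like cells (11.5%, exact 95% interval 9.81% to 13.5%) and in 6 of 115 B-like cells (5.22%). They were found together in 2 of 889 T/NK-like cells (0.225%, interval 0.0273% to 0.810%), 0.393% of rod-like cells, 0.400% of Müller-like cells and 0.403% of cone-like cells. Cells with both chains can lack a UMI of one at this depth. The intervals pool cells of all libraries and cover counting error only. Free RNA adds UMIs to all classes, and its part in these shares was not tested.

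IFNAR1 was the most even of the 4 chains across classes. Its mean was 126 CPM ± 15.7 (SD, n = 8) in cone-like cells, 110 CPM ± 10.7 in rod-like cells, 95.7 CPM in myeloid-like, 90.0 CPM in amacrine-like, 88.9 CPM in bipolar-like, 86.9 CPM in Müller-like and 86.6 CPM in horizontal-like cells. T/NK-like cells had 66.9 CPM (n = 7), B-like cells 65.7 CPM (n = 3), ganglion-like cells 56.3 CPM and plasma-like cells 49.3 CPM (n = 3). Cone-like cells were above rod-like cells in 7 of 8 libraries (exact sign-flip p 0.0156, adjusted 0.0833). Low-count barcodes held 29.8 to 127 CPM, so a low level in a class cannot be told from free RNA by this gene alone.

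IFNAR2, the chain that binds type I interferon most tightly, was highest in myeloid-like, T/NK-like and B-like cells. Myeloid-like cells had 216 and 196 CPM in NHP1, 262 and 315 CPM in the uninjected areas of NHP2, 315 and 221 CPM in hRPGR blebs and 378 and 484 CPM in the mScarlet blebs. T/NK-like cells had 211 CPM in the left library of NHP1, 288 and 247 CPM in the uninjected areas, 303 and 338 CPM in hRPGR blebs and 314 and 319 CPM in the mScarlet blebs. Myeloid-like and T/NK-like means, 298 CPM ± 97.1 (SD, n = 8) and 289 CPM ± 44.6 (n = 7), did not differ beyond their spread (exact sign-flip p 0.688). The myeloid-like level is a mixture of 2 clusters, of which that with the lower UMI counts per cell held 70.5 to 148 CPM, below every T/NK-like library, and the other 206 to 538 CPM. B-like cells had 231 CPM (n = 3). Among neurons, cone-like cells had 88.6 CPM ± 18.3 (n = 8) and lay above Müller-like cells, with 42.7 CPM ± 13.4, in 8 of 8 libraries. Horizontal-like cells had 39.0 CPM, bipolar-like 31.3 CPM ± 11.7, rod-like 25.8 CPM ± 12.7, amacrine-like 23.8 CPM and ganglion-like cells 14.1 CPM.

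IFNAR1 and IFNAR2 were found together in 76 of 1221 thinned myeloid-like cells (6.22%), 51 of 889 T/NK-like cells (5.74%, interval 4.30% to 7.47%), 6 of 115 B-like cells (5.22%), 70 of 2484 cone-like cells (2.82%) and 357 of 40927 rod-like cells (0.872%). The intervals of myeloid-like and T/NK-like cells overlap, and both lie above those of cone-like and rod-like cells. These intervals pool cells of all libraries and cover counting error only. Of the 889 T/NK-like cells, 236 and 421 came from the mScarlet blebs. The difference between classes was not tested over libraries.

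**Figure D2:**
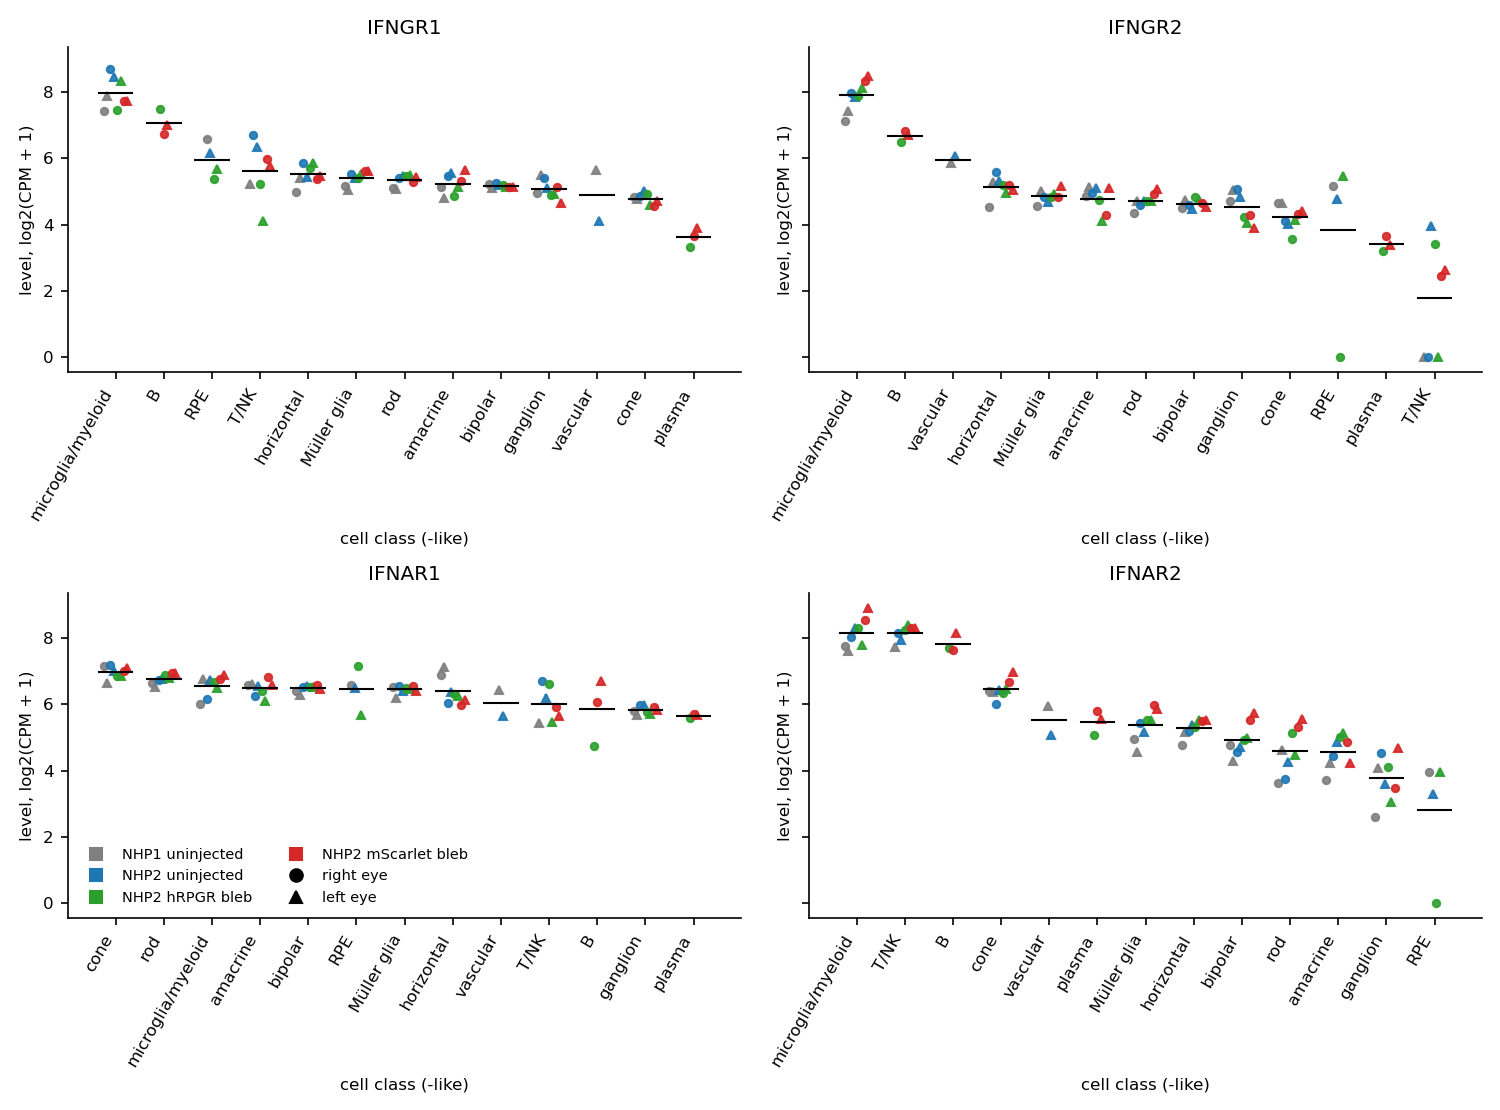
The 4 receptor chains by cell class, in CPM on a log axis, with 1 point for each library. Myeloid-like cells lead for IFNGR1, IFNGR2 and IFNAR2, with means of 262, 249 and 298 CPM, T/NK-like cells have the lowest mean for IFNGR2, and cone-like cells lead for IFNAR1.

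Along the order of mean levels, 32 neighbouring pairs of classes were tested with the exact sign-flip test over libraries with at least 10 cells of both classes, where the pair shared at least 6 such libraries. None passed after adjustment, with 8 of the 32 pairs at an unadjusted p under 0.05 and a smallest adjusted p of 0.0833. With at least 50 cells in both classes, 7 of 20 pairs passed, at a smallest adjusted p of 0.0446. They were myeloid-like above Müller-like and bipolar-like above cone-like for IFNGR1, myeloid-like above Müller-like for IFNGR2, cone-like above rod-like for IFNAR1, and myeloid-like above cone-like, cone-like above Müller-like and Müller-like above bipolar-like for IFNAR2.

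The genes whose mean level over 13 classes was most like that of a member, among 17090 genes, are a description over classes of the same libraries. For IFNG they were ENSMMUG00000048246 (Pearson r 0.999), ENSMMUG00000058459 (0.998) and ZNF831 (0.998). For IFNGR1 they were CD68 (0.916), a lysosomal protein of macrophages, MTMR14 (0.905) and HSPD1 (0.889). For IFNGR2 they were BACH1 (0.901), RAB32 (0.874) and SLC31A2 (0.858), for IFNAR1 TMEM33 (0.919), HS2ST1 (0.896) and ZBTB34 (0.885), and for IFNAR2 BAZ1A (0.969), USP18 (0.931), which itself binds IFNAR2 and damps its signal, and STK10 (0.928).

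The areas of NHP2 were compared by edgeR on the sums of UMIs per class and library, in 8 classes, and 32 of 48 combinations of a member and a class had enough counts. Between the mScarlet blebs and the uninjected areas 1 of 32 passed at an adjusted p under 0.05, against 0.934% of all 87513 gene and class combinations, and 10 had an unadjusted p under 0.05, against 13.8% of all. Between hRPGR blebs and uninjected areas 0 passed (0.0331% of all), with 3 at an unadjusted p under 0.05 (5.00% of all), and between the 2 kinds of bleb 0 passed (0.0846% of all), with 6 (8.54%). Between left and right eyes 0 passed (0.0137% of all), with 1 (2.62%), and between the uninjected retina of NHP2 and of NHP1 0 of 28 passed (1.53% of all), with 7 (13.3%). DESeq2 called 2, 0, 0, 0 and 0 in the same 5 comparisons.

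The member that passed was IFNAR2 in bipolar-like cells, where it was raised in the mScarlet blebs. Its level was 26.2 and 18.4 CPM in NHP1, 22.8 and 25.1 CPM in the uninjected areas of NHP2, 29.3 and 30.6 CPM in hRPGR blebs and 44.8 and 52.9 CPM in the mScarlet blebs. Both mScarlet blebs lay above both uninjected areas, as they did for 22.7% of all genes tested in these cells. The log2 fold change was 1.03 (SE 0.13), a 2.04-fold difference, with an edgeR adjusted p of 0.0025, where 0.905% of the genes tested in these cells passed. The thinned share of bipolar-like cells with an IFNAR2 UMI was 4.72% and 4.50% in the uninjected areas, 4.42% and 6.46% in hRPGR blebs and 8.25% and 9.0% in the mScarlet blebs. Without the left mScarlet bleb the log2 fold change was 0.92 and the adjusted p 0.0671, and without the right uninjected area, which held RPGR transgene, they were 0.97 and 0.0184.

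In rod-like cells IFNAR2 was 11.4 and 23.6 CPM in NHP1, 12.3 and 18.4 CPM in the uninjected areas of NHP2, 33.9 and 21.1 CPM in hRPGR blebs and 38.9 and 46.5 CPM in the mScarlet blebs. The 4 blebs lay above both uninjected areas, as 20.3% of all genes tested in rod-like cells did. The log2 fold change of the mScarlet blebs was 1.41 (SE 0.24), a 2.66-fold difference, with an edgeR adjusted p of 0.056, where 1.26% of the genes tested in these cells passed. It passed under DESeq2 (adjusted p 1.6e-06), with no filter on low counts (0.0011), with at least 3000 UMIs per cell (0.0471) and without the right (0.0025) or left (0.0030) hRPGR bleb, and not with the eye as a block (0.132), with doublet-scored cells kept (0.0581), with unnamed clusters counted (1.29, adjusted p 0.211) or without any 1 of the uninjected areas or mScarlet blebs (0.123 to 0.442). Libraries took unequal shares of the rod-like clusters. In the largest, of 7246 cells, 43.4% came from the right uninjected area of NHP2, and in a pair of others 50.2% and 52.1% came from the left mScarlet bleb. Of the unnamed clusters with rod markers highest, 1 had 80.8% of its cells from the left uninjected area of NHP2 and 1 had 68.6% from the right hRPGR bleb. The part of these clusters in the IFNAR2 levels was not tested beyond the value with unnamed clusters counted. In Müller-like cells the levels were 42.9 and 35 CPM in the uninjected areas, 44.8 and 45.6 CPM in hRPGR blebs and 62.7 and 57.7 CPM in the mScarlet blebs, a difference of 0.56 on the log2 scale (SE 0.13, adjusted p 0.124), which passed without the right uninjected area (0.73, adjusted p 0.0357). Cone-like cells differed by 0.47 (SE 0.16, adjusted p 0.177) and myeloid-like cells by 0.64 (SE 0.25, adjusted p 0.243).

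**Figure D3:**
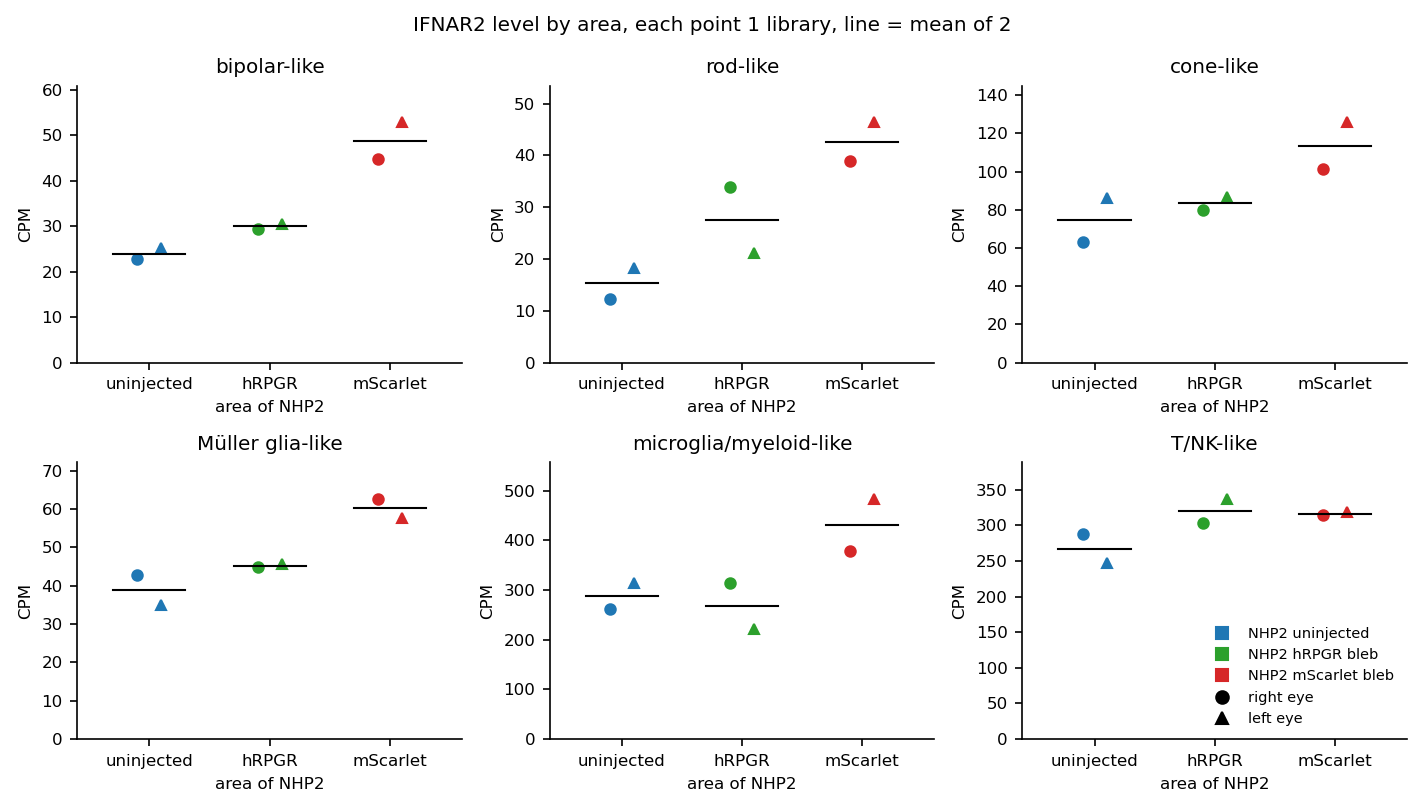
IFNAR2 in CPM in each library of NHP2, with a panel for each cell class, the areas in their own colours and both eyes as points. In bipolar-like cells the mScarlet blebs, at 44.8 and 52.9 CPM, lie above both uninjected areas.

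Other levels moved in the same libraries. Low-count barcodes held 8.34 and 17.3 CPM of IFNAR2 in the uninjected areas and 19.2 and 25.3 CPM in the mScarlet blebs, and rod-like cells were 1.06 to 2.02 times the low-count level of their library. Bipolar-like cells were 2.73 and 1.46 times that level in the uninjected areas, 1.01 and 2.42 times in hRPGR blebs and 2.33 and 2.09 times in the mScarlet blebs. Relative to low-count barcodes the mScarlet blebs thus lay between the uninjected areas of NHP2 in bipolar-like cells. In rod-like cells they lay above both (1.48 and 1.06 times against 2.02 and 1.83 times). Rod-like cells were 1.16 and 1.67 times that level in hRPGR blebs and 1.8 and 1.31 times in NHP1, so the right library of NHP1 lay close to the left mScarlet bleb. The share of all genes with this order was not counted. In bipolar-like cells the summed level of 12 myeloid markers was 48.4 to 50.5 CPM in uninjected areas and 55.0 to 71.1 CPM in mScarlet blebs, with UMIs of 12 of 12 in both. That of 12 T/NK markers was 16.1 to 17.5 CPM (8 of 12 with a UMI) and 20.6 to 28.4 CPM (10 of 12, GZMA and KLRD1 at 0). In rod-like cells the myeloid sum was 52.8 to 54.6 CPM and 64.9 to 79.6 CPM, and the T/NK sum 7.52 to 7.74 CPM (7 of 12) and 7.89 to 8.67 CPM (11 of 12, KLRD1 at 0). In hRPGR blebs the myeloid sum was 50.3 to 52.5 CPM in bipolar-like and 63.5 to 84.1 CPM in rod-like cells. The T/NK sum there was 15.5 to 18.7 CPM (6 of 12) and 8.56 to 10.4 CPM (11 of 12). PTPRC, the leukocyte antigen CD45, was 0.190 to 0.729 CPM in bipolar-like cells of uninjected areas, 1.84 to 2.57 CPM in those of mScarlet blebs and 1721 to 2475 CPM in T/NK-like cells of NHP2. The part of these in the IFNAR2 difference was not tested.

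The IFN-γ receptor chains of myeloid-like cells went opposite ways without passing. IFNGR1 had a log2 difference of -0.79 (SE 0.32, edgeR adjusted p 0.254) between mScarlet blebs and uninjected areas and IFNGR2 had 0.56 (SE 0.23, adjusted p 0.271). For IFNGR1 both uninjected areas lay above all 4 blebs, as they did for 10.1% of the genes tested. P2RY12, a marker of resting microglia, was 630 and 251 CPM in the uninjected areas, 144 and 310 CPM in hRPGR blebs and 183 and 151 CPM in the mScarlet blebs of the same class, and CX3CR1 was 800 and 265, 201 and 378, and 167 and 158 CPM. In 1 of the 2 myeloid-like clusters, with medians of 8456 to 19350 UMIs per cell, IFNGR1 was 505 and 389 CPM, 210 and 370 CPM, and 229 and 229 CPM in the same order. In the other, with medians of 1782 to 2421 UMIs, it was 143 and 132 CPM, 84.1 and 122 CPM, and 137 and 114 CPM, and there the uninjected areas overlapped the mScarlet blebs. The part of the makeup of this class was not tested.

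In T/NK-like cells IFNGR1 was 104 and 79.9 CPM in the uninjected areas, 36.3 and 16.3 CPM in hRPGR blebs and 62.6 and 53.2 CPM in the mScarlet blebs. The 4 blebs lay below both uninjected areas, as 10.3% of the genes tested did. The log2 fold change of the hRPGR blebs was -1.60 (SE 0.47, edgeR adjusted p 0.841), from 9 and 11 UMIs in the uninjected areas and 15 and 3 UMIs in the blebs. Across eyes and animals no member passed. The lowest unadjusted p for eyes was 0.0328, for IFNAR2 in cone-like cells (log2 difference 0.28, SE 0.11, higher in left eyes). For animals it was 0.0063, for IFNGR1 in rod-like cells, with 33.5 and 32.6 CPM in NHP1 and 41.7 and 43.5 CPM in the uninjected areas of NHP2 (adjusted p 0.103).

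**Figure D4:**
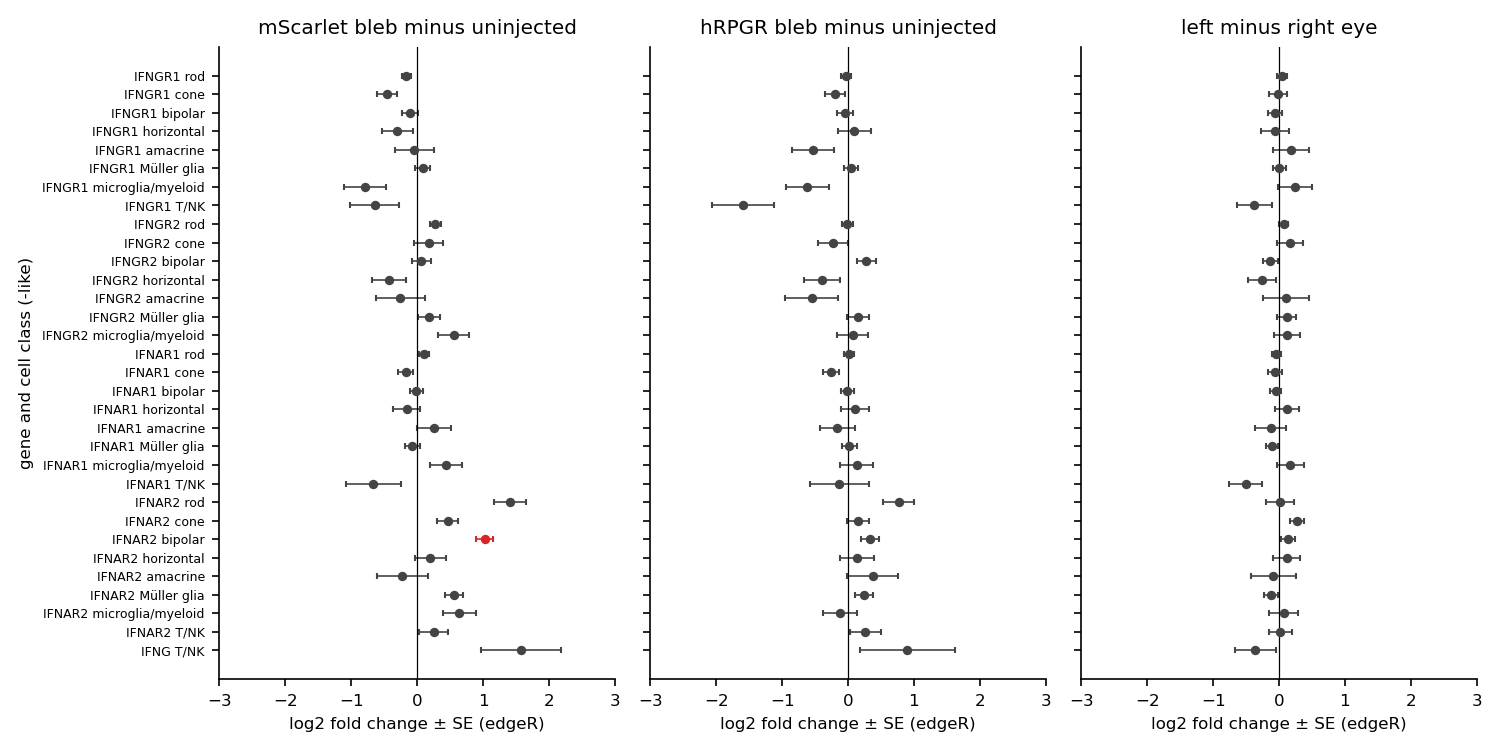
Log2 fold changes of the members that could be tested, by cell class, with bars of 1 standard error. The panels compare mScarlet blebs with uninjected areas of NHP2, hRPGR blebs with uninjected areas, and left with right eyes. IFNAR2 in bipolar-like cells of mScarlet blebs, at 1.03, is the value that passed.

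The genes that carry the receptor signal were taken as lists. Of the signal transducers 6 (JAK1, JAK2, TYK2, STAT2, IRF9 and IRF1) gave 47 tests over the 8 classes between mScarlet blebs and uninjected areas, and 7 rose, 0 fell and 17 had an unadjusted p under 0.05, as did 13.8% of all genes and classes tested. Class medians were -0.0034 to 0.89 on the log2 scale, beside -0.01 to 0.01 over all genes. Of the 7 that rose, 6 were IRF1, a transcription factor induced by interferon, and the other was JAK2 in Müller-like cells (log2 fold change 0.88, SE 0.11, adjusted p 0.0437, and 0.0856 with the eye as a block). JAK2 passed without the right uninjected area and not without any other library (adjusted p 0.0829 to 0.274). Of all genes tested in this comparison 1.26% passed in rod-like, 2.05% in cone-like, 0.657% in horizontal-like, 0.161% in amacrine-like, 0.363% in Müller-like, 1.48% in myeloid-like and 0.0174% in T/NK-like cells. Between hRPGR blebs and uninjected areas 2 of 47 rose, both IRF1, in bipolar-like cells (0.0696% of all genes passed) and horizontal-like cells (0.146%). Between the 2 kinds of bleb 2 of 47 were higher in mScarlet blebs, IRF1 in bipolar-like (0.255%) and cone-like cells (0.25%). Between left and right eyes 0 of 47 passed and 17 had an unadjusted p under 0.05 (2.62% of all). IRF9 was at -2.17 to -0.26 and STAT2 at -1.42 to -0.30 on the log2 scale, negative (lower in left eyes) in 8 of 8 classes.

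IRF1 in bipolar-like cells was 4.17 and 6.74 CPM in the uninjected areas, 18.4 and 16.0 CPM in hRPGR blebs and 49.5 and 58.5 CPM in the mScarlet blebs. Both mScarlet blebs lay above both uninjected areas, as they did for 22.7% of all genes tested in these cells. The log2 fold change was 3.30 (SE 0.20, edgeR adjusted p 1.1e-05) for mScarlet against uninjected, 1.63 (SE 0.23, adjusted p 0.0305) for hRPGR against uninjected and 1.66 (SE 0.17, adjusted p 0.0025) for mScarlet against hRPGR. In cone-like cells IRF1 was 2.34 and 4.94 CPM, 7.51 and 8.57 CPM, and 33.7 and 53.2 CPM in the same order, and mScarlet differed from uninjected by 3.43 (SE 0.32, adjusted p 0.0010) and from hRPGR by 2.29 (SE 0.30, adjusted p 0.0153). Horizontal-like cells had 3.44 and 5.06 CPM, 28.6 and 70.1 CPM, and 72.0 and 95.9 CPM, and both blebs passed (4.32, SE 0.50, adjusted p 0.0016, and 3.49, SE 0.57, adjusted p 0.0392). In amacrine-like cells IRF1 passed too, from 0 and 2 UMIs in the uninjected areas to 19 and 48 UMIs in the mScarlet blebs. The mScarlet calls against uninjected areas in bipolar-like, cone-like and horizontal-like cells held without each library in turn. The amacrine-like call was lost without either uninjected area (adjusted p 0.0616 and 0.231) or the left mScarlet bleb (0.132), and under DESeq2 (0.281). Its log2 fold change was 4.67, from 2 UMIs in the uninjected areas, and without the left of these the other holds 0 UMIs, so that the fitted 7.67 depends on the prior count. The hRPGR call in bipolar-like cells was lost without any 1 library (0.0515 to 0.177), and that in horizontal-like cells without either uninjected area (0.410 and 0.217) or the left hRPGR bleb (0.122), and its log2 fold change was 2.79 without the left hRPGR bleb and 4.08 without the right. In cone-like cells the mScarlet value was 4.03 without the left uninjected area. The calls between blebs were lost without the left mScarlet bleb (bipolar-like 0.0918, cone-like 0.273), and the cone-like one also without the right mScarlet bleb (0.0787).

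In rod-like cells IRF1 was 11.4 and 20.7 CPM in the uninjected areas, 68.4 and 28.7 CPM in hRPGR blebs and 107 and 134 CPM in the mScarlet blebs, and in Müller-like cells 21.0 and 18.2 CPM, 38.1 and 42.3 CPM, and 92.5 and 159 CPM. Both passed between mScarlet blebs and uninjected areas (rod-like 2.85, SE 0.42, adjusted p 0.0428, and Müller-like 2.62, SE 0.28, adjusted p 0.0342). With the eye as a block the adjusted p was 0.119 and 0.0688. The rod-like call was lost without any 1 of the uninjected areas or mScarlet blebs (0.115 to 0.389), and the Müller-like call without either hRPGR bleb (0.0696 and 0.0744), the left uninjected area (0.103) or the left mScarlet bleb (0.0820). NHP1, with 12.8 and 50.02 CPM in rod-like cells, overlapped the hRPGR blebs of NHP2. In cone-like cells NHP1 held 4.93 and 12.8 CPM, and its left library lay above both hRPGR blebs. In bipolar-like cells NHP1 held 4.01 and 10.8 CPM, below both hRPGR blebs. IRF1 in T/NK-like cells was 472 and 283 CPM in the uninjected areas, and 332 to 395 CPM in the 4 blebs, and did not pass. In myeloid-like cells it was 99.8 and 262 CPM in the uninjected areas, 69.1 and 102 CPM in hRPGR blebs and 134 and 203 CPM in the mScarlet blebs. Neither bleb passed there, with -0.02 (SE 0.42, adjusted p 0.989) for mScarlet and -1.10 (SE 0.44, adjusted p 0.730) for hRPGR against uninjected.

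Immune markers moved with IRF1 in part of these classes. In cone-like cells the summed level of the 12 myeloid markers was 55.1 to 59.6 CPM in uninjected areas (11 of 12 with a UMI, C1QA at 0), 48.1 to 59.9 CPM in hRPGR blebs (10 of 12, CD14 and P2RY12 at 0) and 72.0 to 84.0 CPM in mScarlet blebs (10 of 12, CX3CR1 and P2RY12 at 0). The T/NK sum there was 3.27 to 9.18 CPM (5 of 12), 5.80 to 6.63 CPM (5 of 12) and 13.1 to 14.1 CPM (11 of 12, KLRD1 at 0). In Müller-like cells the T/NK sum was 5.95 to 7.21 CPM in uninjected areas (4 of 12) and 7.75 to 7.88 CPM in mScarlet blebs (7 of 12). It was highest in hRPGR blebs, at 8.55 to 10.1 CPM (6 of 12), where IRF1 was lower than in mScarlet blebs. The myeloid sum of Müller-like cells is given with IDO1. In horizontal-like cells the myeloid sum was 82.5 and 72.5 CPM in the uninjected areas and 51.0 and 56.0 CPM in the mScarlet blebs, so it was lower where IRF1 was higher. The part of these markers in the IRF1 differences was not tested.

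**Figure D5:**
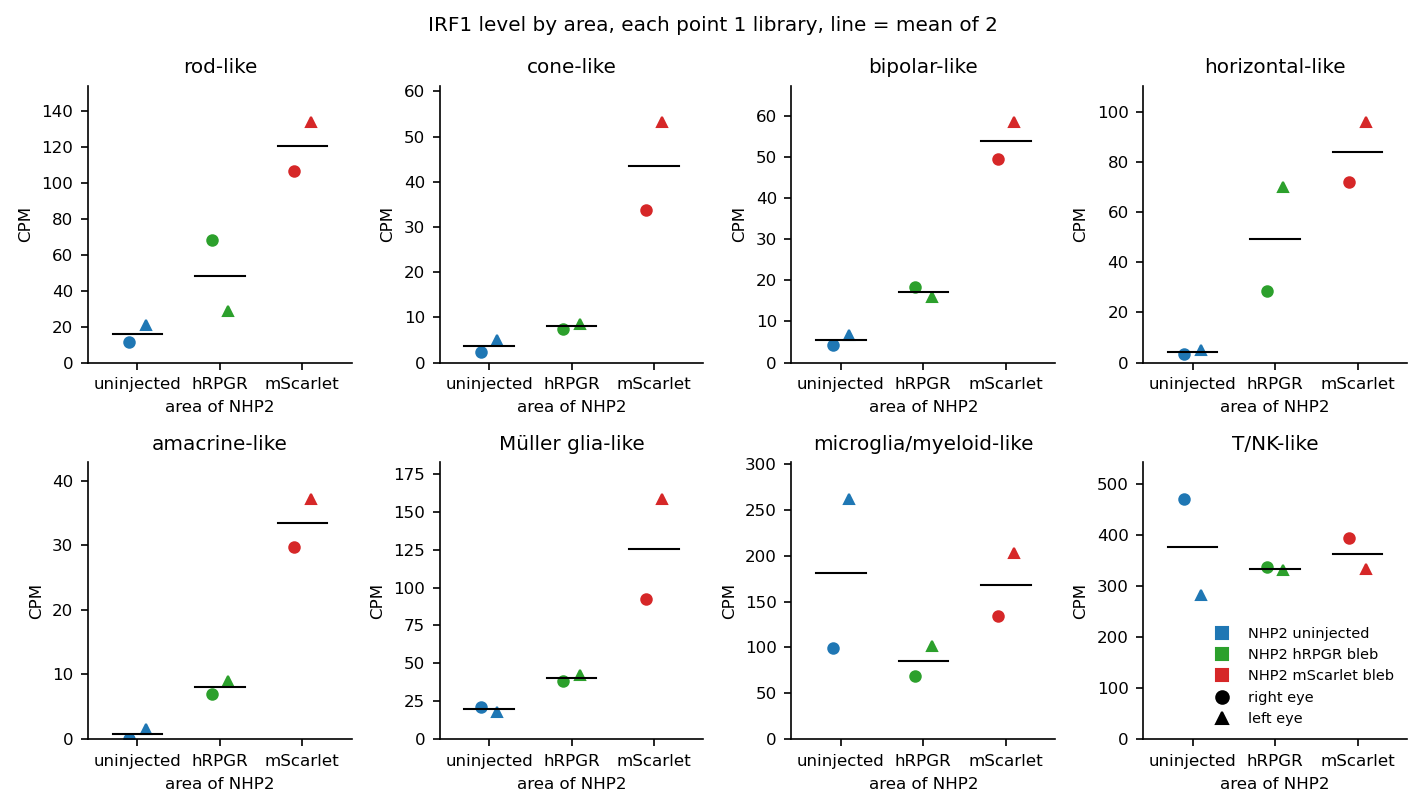
IRF1 in CPM in each library of NHP2, by cell class and area. In bipolar-like cells the uninjected areas held 4.17 and 6.74 CPM, the hRPGR blebs 18.4 and 16.0 CPM and the mScarlet blebs 49.5 and 58.5 CPM.

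Of the 7 negative regulators 2 of 47 tests rose between mScarlet blebs and uninjected areas and 12 had an unadjusted p under 0.05 (13.8% of all). They were SOCS1, an inhibitor of JAK kinases, in rod-like cells (0.466 and 1.49 CPM against 8.05 and 11.6 CPM, log2 fold change 3.30, SE 0.51, adjusted p 0.0466, and 0.119 with the eye as a block) and PTPN2, a phosphatase of JAK and STAT proteins, in myeloid-like cells (1.46, SE 0.24, adjusted p 0.0325). Both were lost without any 1 of the uninjected areas or mScarlet blebs (0.0904 to 0.413 and 0.0987 to 0.214). SOCS1 was at 2.69 without the right uninjected area and at 4.26 without the left. Of 6 type II targets (CIITA, CXCL9, IDO1, IRF8, GBP4 and GBP5) 4 were among the features, 8 tests were possible, all 8 were positive and 1 passed. That was IDO1, an enzyme of tryptophan breakdown, in Müller-like cells, with 0.656 and 1.68 CPM in the uninjected areas, 23.4 and 12.1 CPM in hRPGR blebs and 40.4 and 106 CPM in the mScarlet blebs (5.72, SE 0.72, adjusted p 0.0437, and 0.0852 with the eye as a block). The summed level of 12 myeloid markers in Müller-like cells was 503 to 654 CPM in uninjected areas (12 of 12 with a UMI), 831 to 872 CPM in hRPGR blebs (12 of 12) and 1188 to 1189 CPM in mScarlet blebs (11 of 12, ITGAM at 0), most of it LYZ. In myeloid-like cells IDO1 was 27.7 and 180 CPM, 161 and 218 CPM, and 460 and 571 CPM in the same order of areas, and the part of these cells in the Müller-like value was not tested. The IDO1 call was lost without either hRPGR bleb (0.0800 and 0.0801), the left uninjected area (0.133) or the left mScarlet bleb (0.166), at log2 fold changes of 6.68 and 4.84 for the last pair. Of 12 inducers and regulators of IFNG 1 of 19 tests rose, IL15 in rod-like cells, from 5 and 5 UMIs to 61 and 71 UMIs (3.51, SE 0.49, adjusted p 0.0400, and 0.110 with the eye as a block). Of the T/NK subset genes 0 of 45 tests rose and 1 fell, CD8A in myeloid-like cells (-2.39, SE 0.44, adjusted p 0.0410). Both were lost without any 1 of the uninjected areas or mScarlet blebs (0.135 to 0.377 and 0.0614 to 0.293).

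The 6 type I targets (IFIT1, IFIT3, MX1, RSAD2, ISG15 and OAS1) were tested in the same way. Between mScarlet blebs and uninjected areas 1 of 40 tests rose, IFIT1 in cone-like cells (2.92, SE 0.48, adjusted p 0.0209), and 10 had an unadjusted p under 0.05 (13.8% of all). Its level was 3.89 and 2.12 CPM in the uninjected areas, 8.40 and 1.76 CPM in hRPGR blebs and 22.6 and 29.0 CPM in the mScarlet blebs, and the call was lost without the left uninjected area (0.124) or without the right (0.125) or left (0.221) mScarlet bleb. Between left and right eyes 0 of 40 differences were positive, 33 had an unadjusted p under 0.05 (2.62% of all genes and classes tested) and 1 passed, IFIT3 in T/NK-like cells, lower in left eyes (-1.62, SE 0.22, adjusted p 0.0429, where 0.0695% of the genes tested passed). It was lost without either mScarlet bleb (0.495 and 0.568). Class medians for the eyes were -2.28 to -0.75, beside -0.01 to 0.00 over all genes. Between NHP2 and NHP1, 32 of 35 differences were positive and 20 had an unadjusted p under 0.05 (13.3% of all), and 0 passed, with class medians of 1.52 to 4.89. From the other lists IRF9 (2.78, SE 0.51, adjusted p 0.0208) and USP18 (4.99, SE 0.88, adjusted p 0.0163) were higher in cone-like cells of NHP2, where 2.66% of the genes tested passed. Without the right uninjected area of NHP2 the adjusted p was 0.0659 and 0.0759, without the left library of NHP1 0.136 and 0.187, and for IRF9 without the right library of NHP1 0.0607. The log2 differences of IRF9 and USP18 were 1.74 and 3.96 without the right uninjected area of NHP2 and 3.39 and 5.59 without the left. Adalimumab was given to left eyes alone and each comparison of animals is of 1 against 1, so eye and drug, and animal, vector and age, cannot be told apart.

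Keeping the cells marked by their doublet score ended 9 of the calls on list genes, those of IL15 (adjusted p 0.0508), IFIT1 (0.0693), CD8A (0.0770), PTPN2 (0.0772) and IFIT3 (0.605), and those of IRF1 in amacrine-like cells (0.0617), in hRPGR blebs (bipolar-like 0.0882, horizontal-like 0.0806) and between blebs in cone-like cells (0.0913). Counting unnamed clusters ended 8, those of IL15 (0.120), SOCS1 (0.0922), IFIT1 (0.259), IRF9 (0.0992) and USP18 (0.0518), and those of IRF1 in rod-like cells (0.130), in bipolar-like cells of hRPGR blebs (0.0949) and between blebs in cone-like cells (0.457). With at least 3000 UMIs per cell CD8A (0.0876) and PTPN2 (0.0749) were lost.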

How the data were processed

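Single-cell libraries were made with a 5-prime droplet kit from 4 mm retinal punches. Per the submitters' notes the authors used Cell Ranger 8.0.1 and Mmul_10, to which the transgenes were added, and deposited raw UMI counts for every barcode. The deposited barcode and feature lists were used as other, that is as names, not as measurements. The members and lists were chosen with earlier results of these data known.

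A barcode was called a cell with 1500 UMIs or more, 300 genes or more and no more than 20% of UMIs from mitochondrial genes. Those with 100 to 1000 UMIs measured free RNA. Doublet scores marked 9.37% of the cells, a share set at 0.8% per 1000 cells. Cells were clustered with scanpy 1.11.5 (3000 variable genes, 40 components, resolution 2) and clusters were named from fixed markers. The naming rules were set after looking at the clusters, and 60 of 85 clusters were named. The study's SoupX and Harmony steps were not used. One further NHP1 sample is not analysed here. One gene of the signal transducer list is not reported here and was left out of the counts of that list.

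UMIs were summed per class and library (at least 10 cells) and tested with edgeR 4.0.16 (quasi-likelihood, TMM, Benjamini-Hochberg within a class and contrast), also with DESeq2 1.42.0. Alternatives were no filter on low counts, 3000 UMIs per cell, doublet-scored cells kept, unnamed clusters counted, the eye as a block and each library left out. With 1 library left out its area keeps 1 library, and the spread in that fit comes from the other areas. Calls lost or gained in such fits are a description only. By the labels, libraries of the same number come from the same eye of the same animal. In 9 comparisons of rod-like, bipolar-like and Müller-like sums, deviations of same-eye libraries from their area means correlated at r of -0.39 to 0.25 across genes. Named genes were the members, the list genes with the lowest p among those called, and the 3 genes most like each member. Scripts were tested on simulated data.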

Additional observations from a re-analysis of the deposited data

Results flagged for a closer look

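In CPM without TMM scaling, IFNAR1 levels in the blebs of NHP2 lay above the uninjected areas in 1 class and below them in another. In rod-like cells the 4 blebs held 110.8 to 121.6 CPM, all above the uninjected areas with 106.0 and 108.6 CPM, and in ganglion-like cells they held 51.4 to 60.2 CPM, all below the uninjected areas with 62.2 and 62.8 CPM. After the TMM scaling of the edgeR fit, the right uninjected area held 113.6 CPM in rod-like cells. That was above both hRPGR blebs, at 113.3 and 111.5 CPM. Of all genes tested in rod-like cells 20.3% had all 4 blebs above both uninjected areas, and of the 13405 genes with at least 10 UMIs in ganglion-like cells of NHP2 11.8% had all 4 below both. IFNAR1 did not pass there (edgeR log2 fold change 0.10, adjusted p 0.453, for mScarlet and 0.01, adjusted p 0.985, for hRPGR blebs), and ganglion-like cells were not fitted. The difference between these classes was not tested.

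IFNG UMIs were also present in cells left out for their doublet score. The injected areas of NHP2 held 10 such UMIs, 1 and 1 in hRPGR blebs and 4 and 4 in the mScarlet blebs, and the uninjected areas of both animals held 0.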

How the results depend on the processing

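Between mScarlet blebs and uninjected areas 1 member passed (IFNAR2 in bipolar-like cells), and 2 passed under DESeq2, with no filter on low counts and with at least 3000 UMIs per cell, where IFNAR2 in rod-like cells was added. With 1 library left out the count was 0 to 2: 0 without the left mScarlet bleb, 2 without either hRPGR bleb (IFNAR2 in rod-like cells added) and 2 without the right uninjected area (IFNAR2 in Müller-like cells added). Between hRPGR blebs and uninjected areas leaving out a library gave 0 to 1 (IFNAR2 in rod-like cells, without the left hRPGR bleb). Between the blebs it gave 0 to 1 (IFNAR2 in bipolar-like cells, without the left uninjected area), and no filter gave 1 (IFNAR2 in bipolar-like cells). For eyes and animals the count was 0 in every setting run. The order of classes gave 7 pairs with at least 50 cells and 0 otherwise. Cells with and without IFNG differed in 311 genes without thinning and in 28 with no filter, and leaving out a library left no residual degree of freedom. The cause was not tested.

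With the eye as a replicate block the members called were 1, 0, 0 and 0 (mScarlet, hRPGR, mScarlet against hRPGR, and animals). The IFNG level difference over all cells, 0.739 CPM, had an exact permutation p of 0.222, and the thinned share difference of 3.59 percentage points 0.222. Without the block the IFNG split called 2 genes. The block ended 6 calls named beside their results, among them JAK2 in Müller-like cells (adjusted p 0.0856), and no other. With 1 library left out the IFNG level difference was 0.527 to 0.961 CPM and the share difference 2.12 to 5.06 points. Of the 427 alternative values, 321 were the same, 85 were weaker in that a call was lost, 8 were stronger and 13 counts moved. The IFNG permutation values are among the 321, and no setting allowed them a p under 0.05. Unless a direction reversed, they had to be the same, so they say nothing about stability. No direction reversed, but counts cannot reverse and most fold changes were of genes called in these data.

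Depth limits 2 members: 4 IFNB1 UMIs in all barcodes and 24 IFNGR2 UMIs in T/NK-like cells allow no finer statement.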

Other observations

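IFNL1, a type III interferon, was the ligand gene with the most UMIs outside T/NK-like cells. It was found in 34 of 316 ganglion-like cells (10.8%, exact 95% interval 7.57% to 14.7%), at 0 and 0 CPM in NHP1, 6.40 and 8.98 CPM in the uninjected areas of NHP2, 5.61 and 4.19 CPM in hRPGR blebs and 16.7 and 7.57 CPM in the mScarlet blebs. The counts of 0 in NHP1 allow up to 5.00 and 1.83 CPM. All 6 libraries of NHP2 held the gene in these cells, and the uninjected areas overlapped the blebs. After thinning to 2000 UMIs per cell the share was 4 of 283 ganglion-like cells (1.41%) and 10 of 889 T/NK-like cells (1.12%). Low-count barcodes held 30 UMIs of the gene (0.124 CPM). Amacrine-like cells held it in 8 of 783 cells (1.02%, interval 0.442% to 2.0%), with 10 of their 15 UMIs in the left uninjected area of NHP2, and in 1 of 630 after thinning. Rod-like cells had 2 of 43570 cells with a UMI, and T/NK-like cells 17 of 898 (1.89%). Ganglion-like cells had a higher median depth, 19770 UMIs, than rod-like cells, 4980 UMIs.

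IFNLR1, the chain specific to the type III receptor, had 958 UMIs. Over the 8 libraries it was 1.67 to 10.2 CPM in ganglion-like cells, 2.64 to 8.75 CPM in cone-like cells and 0 to 12.3 CPM in myeloid-like cells, where the right hRPGR bleb held 27 of 69 UMIs. B-like cells held 9 UMIs in all. In the 5 comparisons it did not pass in any class tested.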
